A study of Mus musculus with 96 samples.

Results

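Glucocorticoid hormones raise the mRNA of a small group of genes in many tissues, and 9 of these genes are described here together with the gene of the hormone's receptor. They are Sgk1, Tsc22d3, Fkbp5, Hif3a, Zbtb16, Klf9, Nfkbia, Plekhf1 and Ddit4, with Nr3c1 as the receptor, and all 10 were found by symbol among the 56748 genes of the count table. The 10 genes were chosen by measured values of these same libraries, since their levels in fed and fasted mice were in view when the list was drawn up. Their diet differences within a tissue and sex are therefore a description, are printed with no p, and support nothing.

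Poly-A RNA of liver, skeletal muscle and cerebral cortex was sequenced from male and female mice, 8 per sex and diet. The males, mice 1 to 16, were C57BL/6 and either had free access to food (AL, mice 1 to 8) or had food withheld for 16 h of every day, from clock hour 16 to clock hour 8 (IF, mice 9 to 16). The regime began at 6 weeks of age and ran for 4 months, and tissues were taken between clock hours 7 and 12 after perfusion with PBS. IF males were thus sampled around the end of a fast, and the effect of the fast cannot be told apart from that of a shifted feeding time. The females, mice 25 to 32 under AL and mice 33 to 40 under IF, carry only sex, tissue and diet in the labels, so their strain, age, fasting hours and time of sampling are not stated, and sex cannot be told apart from the set of mice. The libraries used held between 26097314 and 49838004 counted reads, with a median of 36132954.

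The labels were checked against genes of known sex and tissue pattern. The cortex library of AL mouse 1 goes against its label: it had 213 CPM (counts scaled to a common library total) of Xist and 0 CPM of the Y-linked genes Ddx3y, Uty, Kdm5d and Eif2s3y. In the other male cortex libraries Xist lay between 0 and 0.229 CPM and Ddx3y between 25.1 and 37.3 CPM, and in female cortex Xist lay between 185 and 337 CPM. Liver and muscle of the same mouse had 54 and 37.7 CPM of Ddx3y and 0 CPM of Xist. This cortex library was left out, so 95 of 96 libraries were used and the AL group of male cortex holds 7 mice, and the interactions in cortex are also given with it. The defining markers matched the tissue labels: the means in AL males were 34990 CPM of Alb in liver, 43610 CPM of Acta1 in muscle and 2428 CPM of Snap25 in cortex.

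Glucocorticoids reach most cells and bind the receptor that Nr3c1 encodes, which waits in the cytoplasm in a complex with Hsp90 and co-chaperones, moves to the nucleus and binds DNA as a dimer. In the fasted state the hormone is known for driving glucose output in liver and protein breakdown in muscle, and in brain the receptor takes part in feedback on the stress axis. Many of the genes it induces restrain the response or neighbouring pathways: Fkbp5 makes the receptor less sensitive, Tsc22d3 and Nfkbia restrain inflammatory transcription, and Ddit4 restrains growth signalling through TORC1. Corticosterone and nuclear receptor protein were not analysed here, and the counts show mRNA levels alone.

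**Figure D1:**
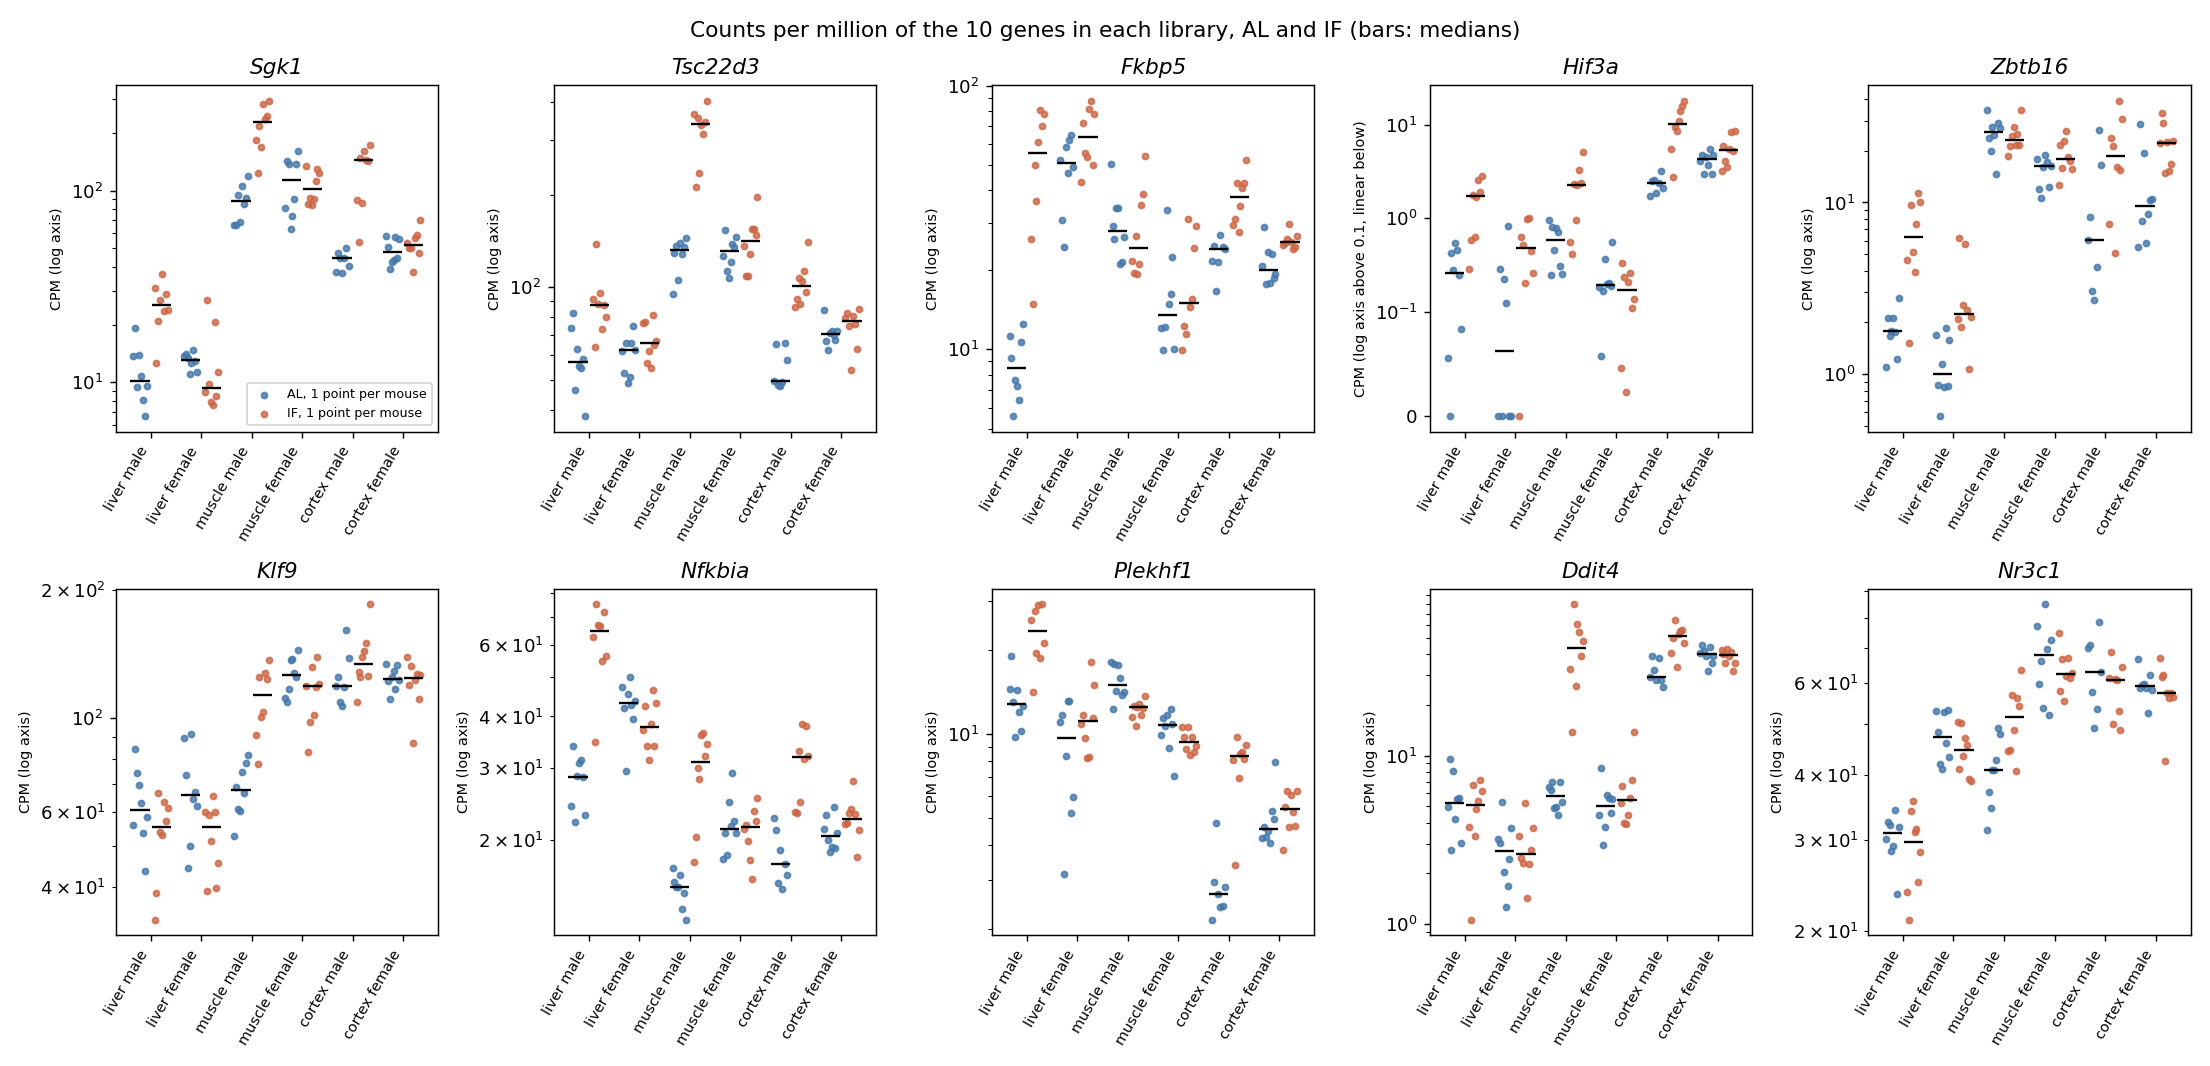
CPM of the 10 genes in each library, with AL mice in blue and IF mice in orange and a bar at the median of each group. The axes are logarithmic, that of Hif3a being linear below 0.1 CPM, and the cortex library that goes against its label is left out.

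Gene positions are those of GRCm39, and levels are given below as CPM, with the lowest, the median and the highest mouse of each group in that order, and n is 8 mice per group except for 7 in male AL cortex. Diet differences are log2 fold changes of IF against AL with their standard error, from 1 edgeR quasi-likelihood fit per tissue and sex over all genes, so a positive value means more mRNA in IF mice. A gene passed the threshold when its p, adjusted by Benjamini-Hochberg over all genes tested, was under 0.05. These p-values measure the spread between mice, and in bulk tissue fewer cells of a type and less RNA per cell cannot be told apart.

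To compare genes with each other, counts were also divided by gene length and scaled to a common total per library (TPM), and the mean levels in AL males follow with their SD. In AL male liver Nfkbia had the highest level of the 10 at 30.5 ± 5.45 TPM, followed by Tsc22d3 at 24.1 ± 6.66 and Klf9 at 23.2 ± 5.49 TPM. Nr3c1, Ddit4, Plekhf1 and Sgk1 came next with mean levels from 6.95 down to 4.17 TPM, then Fkbp5 at 1.65 ± 0.465, Zbtb16 at 0.611 ± 0.183 and Hif3a at 0.068 ± 0.0535 TPM. The intervals of mean ± SD of neighbours in this order overlap among the first 3 genes and from Nr3c1 to Sgk1, while Fkbp5, Zbtb16 and Hif3a each stood apart from the gene above. In AL male muscle Tsc22d3 was highest at 63.4 ± 9.2 TPM, then Sgk1 at 38.6 ± 9.21, Klf9 at 30.8 ± 4.89 and Nfkbia at 20.3 ± 1.68 TPM. In AL male cortex Klf9 led with 78.4 ± 17.1 TPM, then Ddit4 with 53.7 ± 9.28 and Tsc22d3 with 38 ± 7.87 TPM. Hif3a had the lowest TPM of the 10 in AL males of all 3 tissues, with 0.182 ± 0.0883 TPM in muscle and 1.04 ± 0.269 TPM in cortex. From Klf9 down to Nr3c1 in cortex the intervals of mean ± SD of neighbours overlap.

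Nr3c1 (ENSMUSG00000024431, chr18:39543598-39652474 on the minus strand) encodes the glucocorticoid receptor. In male liver it had 23.6, 30.9 and 34.3 CPM in AL and 21.1, 29.7 and 35.6 CPM in IF mice. In male cortex the values were 49.2, 63 and 78.6 CPM in AL and 48.6, 60.9 and 68.9 CPM in IF mice. The diets overlap almost fully in both tissues, with 1 IF liver above and 1 below all AL livers. In male muscle Nr3c1 had 31.4, 40.9 and 49.2 CPM in AL and 40.6, 51.5 and 63.5 CPM in IF mice, and 4 of 8 IF mice lay above every AL mouse. The log2 fold change was 0.27 ± 0.092 in muscle, -0.17 ± 0.12 in liver and -0.10 ± 0.10 in cortex, and the muscle value was the 1 of the 3 past the threshold. In 9 of 16 refits that left out 1 muscle library the value was 0.22 to 0.27 and no longer past it. Female medians of Nr3c1 moved little between AL and IF, from 47.2 to 44.6 CPM in liver, 67.9 to 62.3 in muscle and 59.1 to 57.5 in cortex. The receptor mRNA was higher in AL females than in AL males in liver, where the ranges do not overlap (41 to 53.2 against 23.6 to 34.3 CPM), and in muscle (52 to 84.9 against 31.4 to 49.2 CPM). That difference between the sets of mice was not tested.

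Fkbp5 (ENSMUSG00000024222, chr17:28618068-28736501 on the minus strand, overlapped by 4 genes, of which 2 on its strand) encodes a co-chaperone that sits in the Hsp90 complex and lowers the receptor's affinity for hormone, so its induction is a feedback loop. Male livers had 5.58, 8.46 and 12.5 CPM of Fkbp5 in AL and 14.9, 55.4 and 81 CPM in IF mice. All 8 IF livers lay above all 8 AL livers, IF mice 10 and 9 being the lowest with 14.9 and 26.2 CPM, and the log2 fold change was 2.46 ± 0.32. Male cortex rose from 16.6, 23.9 and 27.1 CPM to 27.8, 37.9 and 52 CPM, again with no overlap, and a log2 fold change of 0.74 ± 0.12. Male muscle did not follow, with 21, 28 and 50.5 CPM in AL and 19.2, 24.3 and 54.1 CPM in IF mice and a log2 fold change of -0.12 ± 0.25 (95% interval -0.66 to 0.41). In muscle 3 IF mice were below and 1 above every AL mouse, and the log2 fold change was 0.034 without AL mouse 1 and -0.30 without IF mouse 16. AL females already had 24.5, 50.7 and 65.1 CPM of Fkbp5 in liver, above the highest AL male (12.5 CPM) in every mouse and close to the IF male median of 55.4 CPM, and IF females had 42.9, 63.5 and 87.6 CPM. The female log2 fold changes were 0.47 ± 0.18 in liver, 0.25 ± 0.30 in muscle and 0.29 ± 0.083 in cortex, and in each tissue the female diets overlap. In female cortex all IF mice lay between 24.1 and 29.9 CPM, and AL mouse 26, with 29 CPM, was the 1 AL mouse inside that range.

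Tsc22d3 (ENSMUSG00000031431, chrX:139440277-139501408 on the minus strand, overlapped on its strand by Gm53027) encodes the leucine zipper protein GILZ, which holds back inflammatory transcription. In male muscle it had 95, 132 and 144 CPM in AL and 212, 339.8 and 404 CPM in IF mice. In male cortex it had 47.8, 49.5 and 65.7 CPM in AL and 86.4, 101 and 140.1 CPM in IF mice. In both tissues every IF male lay above every AL male, and IF mice 10 and 12 were lowest in muscle and IF mice 9 and 12 in cortex. In male liver the levels were 38.1, 56.9 and 82.6 CPM in AL and 63.8, 87.7 and 138 CPM in IF mice, with 5 of 8 IF mice above all AL mice and IF mouse 11 alone at the top. The log2 fold change of Tsc22d3 was 1.28 ± 0.13 in muscle, 0.93 ± 0.10 in cortex and 0.52 ± 0.14 in liver, all 3 past the threshold, and without IF mouse 11 the liver value was 0.34. In females the diets overlap in every tissue, and the log2 fold changes were 0.20 ± 0.12 in liver, 0.20 ± 0.12 in muscle and 0.066 ± 0.079 in cortex. AL female medians were 62.3, 131 and 70.5 CPM in liver, muscle and cortex, where AL male medians were 56.9, 132 and 49.5 CPM.

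Klf9 (ENSMUSG00000033863, chr19:23118590-23145498 on the plus strand, overlapped on its strand by the microRNA gene Mir1192) encodes a zinc finger transcription factor of the Krüppel-like family. It rose in male muscle, from 52.9, 67.8 and 81.9 CPM in AL to 78.1, 114 and 137 CPM in IF mice, 7 of 8 IF mice being above all AL mice. Male liver had 43.8, 60.9 and 84.7 CPM in AL and 33.6, 55.6 and 66.6 CPM in IF mice. Male cortex had 107, 119 and 161 CPM in AL and 109, 134 and 185 CPM in IF mice. In liver and cortex the diets overlap, with 2 IF livers below all AL livers and 1 IF cortex above all AL cortices. Fitted, Klf9 had a log2 fold change of 0.63 ± 0.11 in muscle, -0.32 ± 0.14 in liver and 0.15 ± 0.10 in cortex, so muscle and liver point in opposite directions. The liver value missed the threshold, and it passed with DESeq2 at -0.34 and in 3 of 6 other settings. AL females had more Klf9 in muscle than AL males, 109 to 145 CPM against 52.9 to 81.9 CPM with no overlap, a difference not tested here. Under IF the female values were 83.2, 119 and 139 CPM in muscle, close to the IF males, and the female log2 fold changes were -0.33 ± 0.14, -0.075 ± 0.094 and -0.049 ± 0.069 in liver, muscle and cortex.

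Zbtb16 (ENSMUSG00000066687, chr9:48565597-48747522 on the minus strand) encodes PLZF, a zinc finger protein that mostly represses transcription. Male livers had 1.11, 1.77 and 2.77 CPM in AL and 1.51, 6.31 and 11.4 CPM in IF mice, and 7 of 8 IF mice were above every AL mouse, IF mouse 10 being the exception. Female livers had 0.571, 1 and 1.85 CPM in AL and 1.08, 2.25 and 6.18 CPM in IF mice. Again 7 of 8 IF females lay above every AL female, with IF mouse 39 within the AL range, more than for any other of the 10 genes in a female tissue. The liver log2 fold change was 1.79 ± 0.31 in males and 1.35 ± 0.33 in females, and the female value did not pass the threshold. Cortex levels of Zbtb16 were scattered within each group, with 2.71, 6.03 and 26.3 CPM in AL males and 5.11, 18.7 and 39.1 CPM in IF males. Female cortex had 5.47, 9.49 and 28.6 CPM in AL and 14.8, 22.3 and 33.1 CPM in IF mice. AL mouse 7 among males and AL mouse 26 among females had the highest AL cortex values and reach well into the IF range. The cortex log2 fold changes were 1.06 ± 0.56 in males and 0.86 ± 0.31 in females, neither past the threshold. In muscle the diets overlap in both sexes, with log2 fold changes of -0.12 ± 0.15 in males and 0.39 ± 0.15 in females.

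Hif3a (ENSMUSG00000004328, chr7:16765432-16796352 on the minus strand, overlapped on the other strand by 4833404L02Rik) encodes a subunit of the hypoxia-inducible factor family, some forms of which hold the other subunits back. Male cortex had 1.73, 2.41 and 3.19 CPM in AL and 2.76, 10.2 and 18 CPM in IF mice, 7 of 8 IF mice above all AL mice and IF mouse 10 within the AL range. In male liver the levels were far lower, 0, 0.263 and 0.54 CPM in AL and 0.284, 1.74 and 2.83 CPM in IF mice. Male muscle had 0.248, 0.585 and 0.96 CPM in AL and 0.418, 2.28 and 5.05 CPM in IF mice, with 5 of 8 IF mice above all AL mice. IF mice 9 and 10 were low in all 3 tissues, in liver IF mouse 9 lying within the AL range, and IF mouse 16 was highest in each tissue. For Hif3a the log2 fold change was 2.45 ± 0.60 in liver, 1.85 ± 0.47 in muscle and 2.19 ± 0.32 in cortex. The liver libraries of AL males held few reads of this gene, so that value rests on low counts. In females Hif3a passed the filter on low counts in cortex alone, where it had 2.97, 4.31 and 5.44 CPM in AL and 3.18, 5.36 and 8.46 CPM in IF mice and a log2 fold change of 0.41 ± 0.20. Female liver ranged from 0 to 0.819 CPM in AL and 0 to 1.01 CPM in IF mice, and female muscle reached at most 0.562 CPM in AL and 0.332 CPM in IF mice. In female cortex 4 of 8 IF mice lay above all AL mice.

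Nfkbia (ENSMUSG00000021025, chr12:55536195-55539432 on the minus strand) encodes the inhibitor that keeps NF-kB in the cytoplasm. Male livers had 22, 28.5 and 33.9 CPM in AL and 34.6, 64.7 and 75.2 CPM in IF mice. Male muscle had 12.7, 15.3 and 17.1 CPM in AL and 17.6, 30.9 and 36.5 CPM in IF mice. Male cortex had 15.2, 17.4 and 22.6 CPM in AL and 23.2, 31.8 and 38.4 CPM in IF mice. Nfkbia is the 1 gene of the 10 in which every IF male lay above every AL male in all 3 tissues, though IF mouse 10 in liver, IF mouse 9 in muscle and both in cortex came within a few CPM of the highest AL mouse. The log2 fold change was 1.04 ± 0.13 in liver, 0.89 ± 0.13 in muscle and 0.76 ± 0.12 in cortex. In females the diets overlap in each tissue, and the log2 fold changes were -0.11 ± 0.11, 0.005 ± 0.093 and 0.12 ± 0.078 in liver, muscle and cortex. AL females had 29.4 to 49.9 CPM of Nfkbia in liver, and 7 of the 8 lay above every AL male and below 7 of the 8 IF males.

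Sgk1 (ENSMUSG00000019970, chr10:21758083-21875802 on the plus strand) encodes the serum and glucocorticoid regulated kinase, which acts on ion channels and FoxO factors downstream of insulin signalling. Male muscle had 66.1, 88.3 and 119 CPM in AL and 123, 227 and 294 CPM in IF mice. Male cortex had 37.3, 44.6 and 50.1 CPM in AL and 53.6, 144 and 173 CPM in IF mice. No IF male overlapped with an AL male in muscle or cortex, and IF mouse 10 was the lowest IF mouse in both, with IF mice 9 and 12 next. Male liver, where the gene is lower, had 6.67, 10.2 and 19.2 CPM in AL and 12.6, 25.4 and 36.5 CPM in IF mice, and 7 of 8 IF mice were above AL mouse 2, the highest of its group. For Sgk1 the log2 fold change was 1.54 ± 0.21 in cortex, 1.27 ± 0.18 in muscle and 1.06 ± 0.17 in liver. Females showed no shift of this kind, with log2 fold changes of -0.001 ± 0.22 in liver (95% interval -0.46 to 0.46), 0.005 ± 0.20 in muscle (-0.42 to 0.43) and 0.11 ± 0.11 in cortex (-0.12 to 0.34). In female liver AL mice lay between 11.1 and 14.8 CPM, while 5 IF mice were below all of them and IF mice 34 and 38, with 27 and 20.6 CPM, above, and without IF mouse 34 the liver log2 fold change was -0.23.

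Ddit4 (ENSMUSG00000020108, chr10:59785491-59787656 on the minus strand) encodes REDD1, which lowers TORC1 activity through the Tsc1 and Tsc2 complex. Its widest change was in male muscle, from 4.46, 5.75 and 7.01 CPM in AL to 13.8, 43.8 and 79.3 CPM in IF mice. There was no overlap in muscle, the IF mice ranged from mouse 10 at the bottom to mouse 11 at the top, and the AL mice lay close together. Male cortex had 25.5, 29.5 and 39.3 CPM in AL and 33.5, 51.6 and 64.4 CPM in IF mice, 7 of 8 IF mice being above all AL mice. In male liver Ddit4 was low and overlapped, with 2.75, 5.25 and 9.54 CPM in AL and 1.06, 5.1 and 7.2 CPM in IF mice. The log2 fold change was 2.88 ± 0.31 in muscle, 0.68 ± 0.12 in cortex and -0.27 ± 0.30 in liver (95% interval -0.89 to 0.34). Female muscle had 2.96, 5.03 and 8.46 CPM in AL and 3.92, 5.43 and 13.7 CPM in IF mice, and IF mouse 40 alone lay above the AL range. The female log2 fold changes of Ddit4 were 0.086 ± 0.30 in liver, 0.37 ± 0.25 in muscle and -0.041 ± 0.073 in cortex, and without IF mouse 40 the muscle value was 0.10.

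Plekhf1 (ENSMUSG00000074170, chr7:37916396-37927440 on the minus strand) encodes a small protein with PH and FYVE domains that binds lipids of endosomes and lysosomes. Male cortex had 2.16, 2.68 and 4.82 CPM in AL and 3.4, 8.32 and 9.77 CPM in IF mice, with IF mouse 10 inside the AL range and the other 7 above it. Male liver had 9.74, 12.9 and 19.1 CPM in AL and 14.2, 23.4 and 29.2 CPM in IF mice, with 6 of 8 IF mice above all AL mice. Male muscle went down, from 12.3, 15 and 18.2 CPM in AL to 10.7, 12.5 and 13.7 CPM in IF mice, 3 IF mice being below all AL mice. The log2 fold change of Plekhf1 was 1.45 ± 0.20 in cortex, 0.72 ± 0.14 in liver and -0.42 ± 0.087 in muscle, all 3 past the threshold, and it is the 1 gene of the 10 that passed in both directions. In females the diets overlap in each tissue, with 3.16, 9.69 and 13.1 CPM in AL and 8.22, 11.1 and 18.1 CPM in IF livers and a log2 fold change there of 0.43 ± 0.25. The female values in muscle and cortex were -0.059 ± 0.10 and 0.080 ± 0.14.

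**Figure D2:**
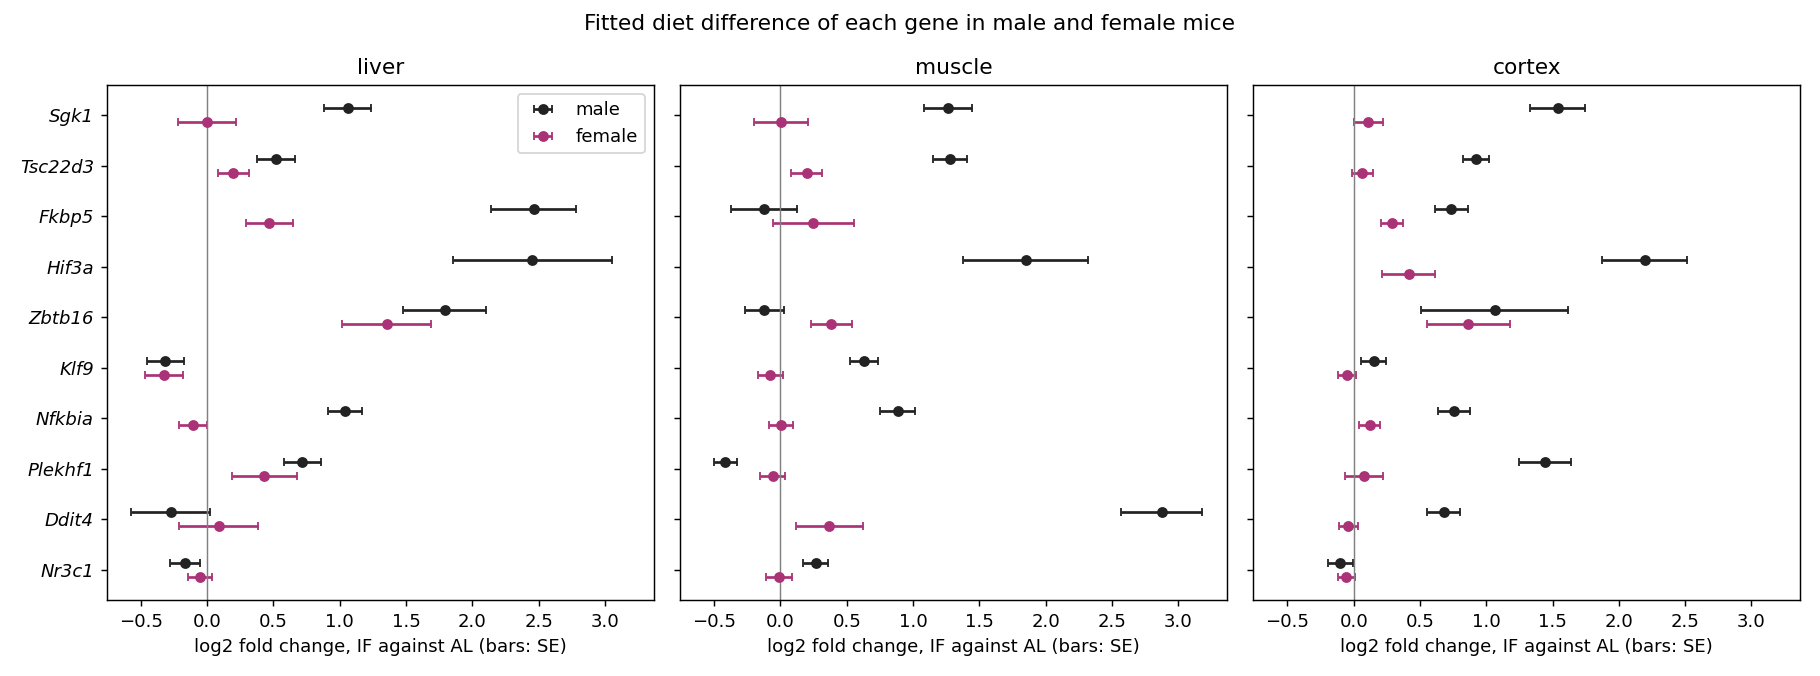
Log2 fold change of IF against AL with its standard error for the 10 genes in liver, muscle and cortex, males in black and females in magenta. Hif3a was not tested in female liver and muscle.

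Counted over the 10 genes, 7 were past the threshold as higher and 0 as lower in male liver, where edgeR called 23.5% of 16204 genes tested higher and 21.1% lower. The 7 include Hif3a, which held 0 to 22 counts per AL library and 11 to 104 per IF library, so its call is not read. In male muscle 7 were higher and 1, Plekhf1, lower, where 11.5% of 15025 genes were higher and 11.6% lower. In male cortex 7 were higher and 0 lower, where 3.79% of 18462 genes were higher and 3.43% lower. At an unadjusted p under 0.05, 8 of the 10 differed in male liver, 8 in male muscle and 7 in male cortex, beside 51.4%, 35.3% and 23.8% of all genes tested. DESeq2 called 8, 8 and 7, to which these edgeR shares do not compare. Its own shares of all genes in male liver and muscle are not given here, so these calls are not read. In male cortex DESeq2 called more of all genes than edgeR, as given in the last section. The median log2 fold change of the 10 genes was 0.88, 0.76 and 0.84 in male liver, muscle and cortex, and that of all genes tested 0.060, 0.006 and -0.005. Every IF male lay above every AL male in 2 of the 10 genes in liver, 4 in muscle and 4 in cortex, and in 8.97%, 2.89% and 0.412% of all genes tested. The split of all called genes depends on the scaling: 52.7% were higher in male liver, 49.8% in male muscle and 52.5% in male cortex, and with library totals in place of TMM 62%, 70.4% and 45.4%. The genes were chosen for such changes, so nothing is read from these counts.

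In females edgeR called 0 of 9 tested members in liver and 0 of 15938 genes (0%), 0 of 9 in muscle and 1 of 15308 genes (0.00653%), and 0 of 10 in cortex and 2 of 18403 genes (0.0109%). At an unadjusted p under 0.05, 3 of the 9 genes differed in liver, 1 of 9 in muscle and 2 of 10 in cortex, beside 5.77%, 10.7% and 11.2% of all genes. DESeq2 called 0 members in each tissue, and its counts over all genes, higher than those of edgeR, are given in the last section. The member medians of the log2 fold change were 0.086, 0.005 and 0.096, beside -0.009, -0.019 and 0.003 over all genes. The cortex count rests on 1 library: without AL mouse 26, Fkbp5 at 0.36 and Zbtb16 at 1.16 passed the threshold, and 254 genes were called in place of 2. No member was free of overlap between the diets in females, and hardly any gene was. In liver 2 of 15938 genes tested had every IF female above every AL female, and 1 had every IF female below. For muscle the same counts were 1 and 13 among 15308, and for cortex 1 and 7 among 18403. Against so rare a background the lack of such members is not read.

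The interaction of sex and diet asks whether the diet difference itself differs between the 2 sets of mice. It was tested over all genes with edgeR's quasi-likelihood test and Benjamini-Hochberg adjustment, and negative values mean a lower ratio of IF to AL in females. It uses the male diet values with which the 10 genes were chosen, so a smaller effect in females was made more likely by that choice and the calls are no independent test. In liver 3 of the 10 genes were called, beside 23.7% of 17658 genes tested. They were Nfkbia with -1.12 ± 0.17 (adjusted p = 4.61e-06), Fkbp5 with -1.96 ± 0.36 (adjusted p = 1.43e-04) and Sgk1 with -1.03 ± 0.30 (adjusted p = 0.00972). For Nfkbia 0 of 8 IF females lay above the AL females and for Sgk1 2 of 8 did, while for Fkbp5 the AL females already stood near the level of IF males. Zbtb16 was not called, at -0.41 (95% interval -1.34 to 0.52), and Hif3a had too few reads in female liver, 0 to 34 counts per AL library, for its value to be read.

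In muscle 7 of the 10 were called in the sex by diet interaction, beside 14.2% of 16346 genes. The largest was Ddit4 with -2.49 ± 0.40 (adjusted p = 1.22e-04), and Hif3a had -2.31 ± 0.67. Hif3a did not pass the low-count filter in female muscle, with 2 to 28 counts per AL library and 1 to 14 per IF library, and entered this fit through the males, so its call is not read and 6 of the 7 are left. Sgk1 had -1.25 ± 0.28 (adjusted p = 0.00298), Tsc22d3 -1.06 ± 0.18 (adjusted p = 1.85e-04) and Nfkbia -0.86 ± 0.16 (adjusted p = 4.32e-04). Klf9 had -0.69 ± 0.15 (adjusted p = 0.00154), where AL females start near the level that IF males reach. Plekhf1 alone went the other way, with 0.38 ± 0.13 (adjusted p = 0.0432), since it fell in IF males and hardly moved in females. That call did not hold with library totals in place of TMM (0.21, adjusted p = 0.276), without the expression filter (0.38, adjusted p = 0.073) or with a replicate block (0.37, adjusted p = 0.0591). Fkbp5, Zbtb16 and Nr3c1 were not called, at 0.39 ± 0.40 (adjusted p = 0.571), 0.53 ± 0.22 (adjusted p = 0.109) and -0.26 ± 0.14 (adjusted p = 0.247).

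In cortex 6 of the 10 were called in this interaction, beside 2.03% of 19547 genes. Hif3a had -1.77 ± 0.38 (adjusted p = 0.0125), Sgk1 -1.42 ± 0.23 (adjusted p = 0.00275) and Plekhf1 -1.36 ± 0.25 (adjusted p = 0.00668). Tsc22d3 had -0.86 ± 0.13 (adjusted p = 7.44e-04), Ddit4 -0.71 ± 0.15 (adjusted p = 0.00919) and Nfkbia -0.63 ± 0.14 (adjusted p = 0.0181). In all 6 the IF males rose, while the female diets overlap, 4 of 8 IF females lying above the AL females for Hif3a, 2 for Sgk1, 1 each for Tsc22d3 and Nfkbia and 0 for Plekhf1 and Ddit4. With the cortex library of AL mouse 1 put back, 3 of the 6 were called, and Hif3a (-1.36, adjusted p = 0.157), Nfkbia (-0.56, adjusted p = 0.0799) and Plekhf1 (-1.15, adjusted p = 0.0527) were not. Fkbp5, at -0.44 ± 0.15 (adjusted p = 0.122), was not called in cortex, nor was Zbtb16 at -0.20 ± 0.62 (adjusted p = 0.92). With library totals in place of TMM the share of called genes with a higher value in females went from 54.1% to 34.8% in liver and from 52.2% to 16.9% in muscle. The median over the 10 genes was -0.35 in liver, -0.78 in muscle and -0.67 in cortex, and over all genes -0.041, -0.010 and 0.003. Without Hif3a, whose values in liver and muscle are not read, it was -0.29 in liver and -0.69 in muscle. Over the 3 tissues the genes called in each were Sgk1 and Nfkbia, and Zbtb16 and Nr3c1 were called in no tissue with TMM, while with library totals Nr3c1 passed in muscle at -0.41 (adjusted p = 0.0368).

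Within the males, the diet difference was compared between tissues in 1 fit over the male libraries of all 3 tissues. This fit uses the very male values with which the genes were chosen, so its calls and p-values describe the 10 genes and are no independent test of them. It took the libraries of a mouse as independent. With the mouse number as a block, all 60 log2 differences, males and females together, kept their side of the threshold, which again only describes the chosen genes. Between liver and muscle 7 of the 10 were called, beside 33.7% of 21608 genes. Ddit4 differed most, with -3.19 ± 0.37 (adjusted p = 2.43e-09), negative because it rose in muscle and not in liver. Fkbp5 was the reverse, with 2.54 ± 0.34 (adjusted p = 4.93e-08), and so was Zbtb16 with 1.86 ± 0.52 (adjusted p = 0.0043). Plekhf1 had 1.09 ± 0.20 (adjusted p = 3.42e-05), being higher in IF liver and lower in IF muscle. Klf9 had -0.99 ± 0.18 (adjusted p = 1.76e-05), Tsc22d3 -0.80 ± 0.19 (adjusted p = 7.46e-04) and Nr3c1 -0.47 ± 0.15 (adjusted p = 0.012), all with the higher IF to AL ratio in muscle.

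Between liver and cortex 4 of the 10 were called, beside 30.1% of genes. Fkbp5 rose more in liver, with 1.70 ± 0.34 (adjusted p = 1.18e-04), and Plekhf1 more in cortex, with -0.76 ± 0.21 (adjusted p = 0.00544). Klf9 had -0.50 ± 0.18 (adjusted p = 0.0323) and Ddit4 -0.98 ± 0.37 (adjusted p = 0.0389), of which the Ddit4 call was lost without the expression filter (-1.004, adjusted p = 0.069). Between muscle and cortex 2 of the 10 were called, beside 5.21% of genes. Plekhf1 had -1.85 ± 0.22 (adjusted p = 1.29e-07), falling in muscle and rising in cortex, and Ddit4 2.21 ± 0.36 (adjusted p = 7.31e-05), rising more in muscle. Sgk1, Hif3a and Nfkbia were called in no male comparison of tissues. For Sgk1 the differences were -0.25, -0.51 and -0.26, and for Nfkbia 0.11, 0.26 and 0.14, in the order liver to muscle, liver to cortex and muscle to cortex. Missing the threshold does not show that the tissues respond alike.

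The same comparison of tissues in females with edgeR called 0 of 10 genes in each pair, beside 0.0611% of 21292 genes between liver and muscle, 0.0564% between liver and cortex and 0.0047% between muscle and cortex. At an unadjusted p under 0.05, 2 of the 10 genes differed between liver and muscle and 0 in the other pairs, beside 9.59% of all genes there and 11.7% and 6.5% in the pairs of liver and of muscle with cortex, and DESeq2 was not run on this comparison. The 2 were Zbtb16 and Hif3a, and the counts of Hif3a in female liver and muscle were too low for a test of diet within either, so its value is not read.

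IF males differed among themselves in several of the 10 genes, and the share of all genes in which each mouse was lowest was not counted. By CPM on library totals, IF mouse 10 had the lowest value of the 8 IF males for 8 of the 10 genes in liver, 5 in muscle and 4 in cortex. Its liver library had the lowest TMM factor of the IF male livers, 0.944, and ranks after TMM scaling were not taken. IF mouse 9 was lowest for 2 genes in each tissue, IF mouse 12 for 3 in cortex and 1 in muscle, IF mice 11 and 13 for 1 each in muscle, IF mouse 15 for 1 in cortex, and IF mice 14 and 16 for 0 in any tissue. Without AL mouse 2 and IF mouse 10, the calls in the diet comparison were 7 of 10 genes in liver, 8 in muscle and 7 in cortex. In the sex by diet interaction, where this was tried after seeing the data, they were 3, 7 and 6. The 7 in muscle there include Hif3a, whose call is not read. Fewer of all genes were then called in male cortex, as given in the last section. For liver, muscle and the interactions the shares of all genes without these mice are not given. None of these counts is therefore read as stability. Without the share over all genes the ranks are not read, and whether mouse 10 stands apart was not tested.

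Whether a mouse that is high in 1 tissue is high in another can be asked without the diet difference, by taking each mouse's deviation of log2 CPM from the mean of its sex and diet group. For each of the 10 genes and 3 pairs of tissues, 30 relations in all, mice were permuted within their group 100000 times, and p-values were adjusted over the 30. The matching of libraries to a mouse rests on the mouse number in the library names, which the values do not establish. Over all genes tested in both tissues, libraries of a group with the same number had a median r of 0.00268 to 0.0607, against -0.0145 to 0.00603 for other numbers, and 1 to 3 of 7 or 8 were most like their own number. Of the 4 relations that passed 3 are those of Hif3a, which did not pass the low-count filter in female liver and muscle: its liver libraries held 0 to 38 counts in females and 0 to 22 in AL males, and its muscle libraries 1 to 28 and 9 to 29. These mice enter the deviations, so the 3 values are printed but not read as relations. For Hif3a between liver and cortex Pearson r was 0.596 (n = 31 mice, permutation p = 7.00e-05) and Spearman rho 0.635 (permutation p = 1.80e-04), with an adjusted p of 0.0021. Between muscle and cortex its r was 0.681 (n = 31 mice, permutation p = 2.90e-04) and rho 0.602 (permutation p = 0.00139), adjusted p = 0.00435 by permutation. Between liver and muscle its r was 0.493 (n = 32 mice, permutation p = 0.00444) and rho 0.502 (permutation p = 0.00485), adjusted p = 0.0333 by permutation. Sgk1 between muscle and cortex had r 0.52 (n = 31 mice, permutation p = 0.00379) and rho 0.399 (permutation p = 0.0335), adjusted p = 0.0333 by permutation. By the same permutation test the Sgk1 relation had r 0.772 in males alone (n = 15, adjusted p = 0.0172) and 0.219 in females alone (n = 16, adjusted p = 0.764).

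Without the 2 mice whose deviation in the first tissue was farthest from the median, the permutation test for Hif3a gave r 0.548 (n = 29, adjusted p = 0.0351) between liver and cortex, 0.532 (n = 29, adjusted p = 0.129) between muscle and cortex and 0.413 (n = 30, adjusted p = 0.215) between liver and muscle. For Sgk1 between muscle and cortex the permutation test then gave r 0.342 (n = 29, adjusted p = 0.364). Hif3a between liver and cortex alone passed without them, on the low liver counts given above, and the other 3 values rest in part on the 2 mice removed. The other 26 relations did not pass. Over all 30 the lowest r was -0.289, the median 0.236 and the highest 0.681, with 26 above 0. The same r between tissues was not taken for genes outside the list, so the share of such genes above 0 or past the threshold is unknown. The numbers above 0 and past the threshold are therefore not read as particular to the listed genes. In males alone 5 relations passed, Nfkbia between muscle and cortex (r 0.758, n = 15, permutation test, adjusted p = 0.0148) being the added one. This Nfkbia relation did not pass over all mice (r 0.424), without the 2 farthest mice (r 0.075) or in females alone (r -0.291). In females alone 0 passed by the permutation test. Zbtb16 between liver and muscle had r 0.668 there (n = 16, permutation p = 0.00723, adjusted p = 0.146). Hif3a between liver and cortex had r 0.621 in females (n = 16, permutation p = 0.00971, adjusted p = 0.146), on few reads in female liver.

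**Figure D3:**
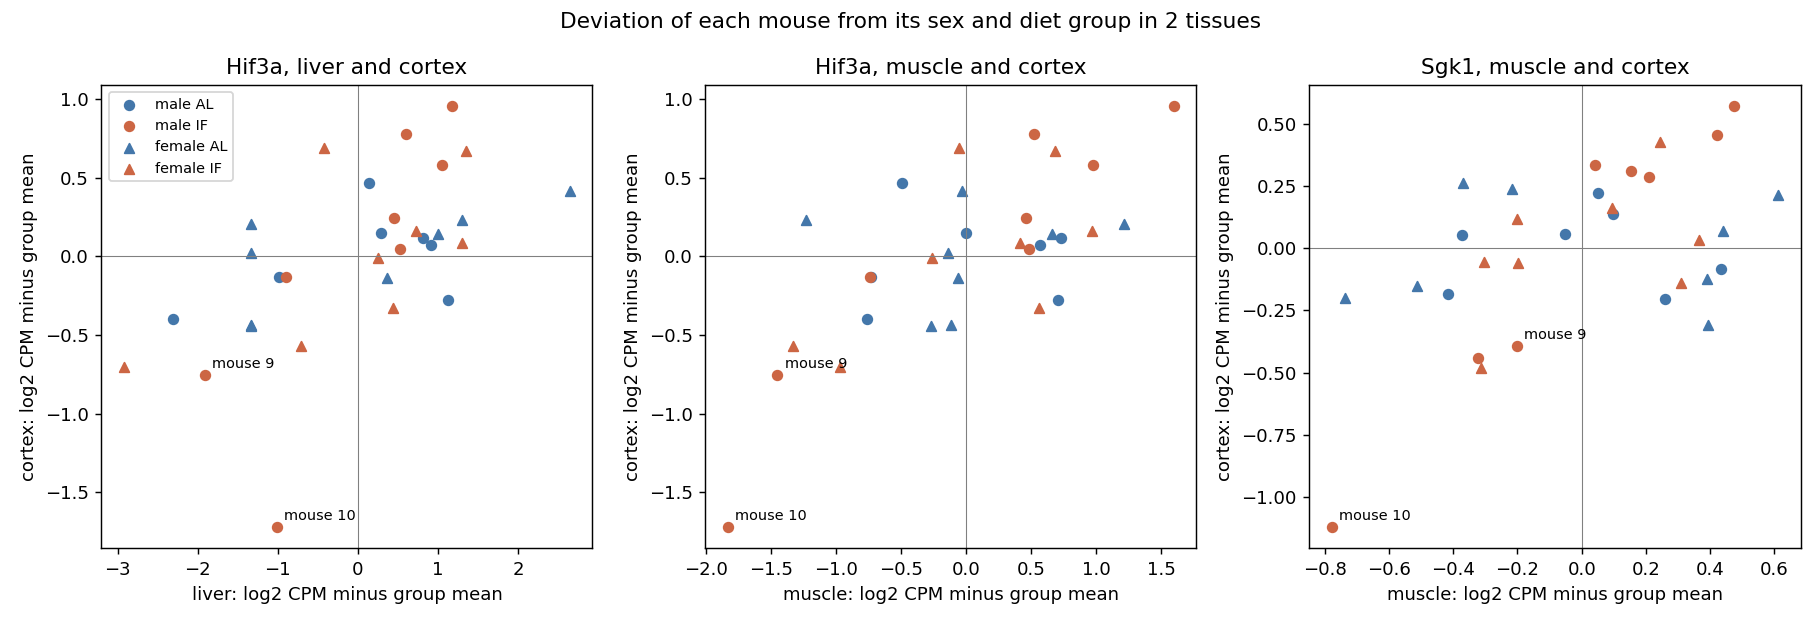
Deviation of log2 CPM from the mean of the mouse's sex and diet group, for Hif3a and Sgk1 in pairs of tissues. Each point is a mouse, and IF mice 9 and 10 are labelled.

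Pairs of the 10 genes were compared by Pearson r of log2 CPM over the 95 libraries after the mean of each tissue and sex was removed, so diet differences stay in and no p is given. Sgk1 and Tsc22d3 had the highest r at 0.816, followed by Sgk1 and Nfkbia at 0.765, with Tsc22d3 at 0.72 to both Nfkbia and Ddit4. Klf9 and Nr3c1 had 0.662, and Fkbp5 and Zbtb16 0.644. The lowest was -0.198 between Plekhf1 and Nr3c1. The points share libraries, depth and the diet by which the genes were chosen.

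By the same measure over 10419 genes with a mean of at least 1 CPM in each tissue and sex, the genes outside the list most like each member were found. Sgk1 lay closest to Plin4 (0.715), Map3k6 (0.701) and Sult1a1 (0.667), and Hif3a to Map3k6 (0.639), Plin4 (0.6) and Pkp4 (0.588). Hif3a itself did not reach a mean of 1 CPM in each tissue and sex, so its values include low counts and are not read. Tsc22d3 lay closest to Arrdc2 (0.802), Tob2 (0.732) and Sult1a1 (0.727), and Ddit4 to Arrdc2 (0.77), Nrip1 (0.667) and Klf15 (0.663). Nfkbia lay closest to Map3k6 (0.804), Cebpd (0.773) and Pim3 (0.754), and Plekhf1 to Plin4 (0.595), Mvp (0.593) and Npepl1 (0.581). Several of these, such as Plin4, Map3k6, Arrdc2, Klf15 and Cebpd, are themselves on the list of other glucocorticoid-induced genes below. Diet differences stay in this measure, and that list too was chosen with earlier results of these data known, so the overlap is not read. Fkbp5 lay closest to Klf13 (0.823), St3gal5 (0.813) and Fbxo31 (0.777), and Zbtb16 to Lrrc47 (0.703), Zgpat (0.703) and Glg1 (0.691). Klf9 lay closest to Ubr3 (0.722), Zdhhc17 (0.697) and Pcmtd2 (0.686), and Nr3c1 to Ncoa2 (0.66), Map2k4 (0.614) and Fbxo3 (0.6).

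A list of 32 other genes that glucocorticoids are known to induce gives the surroundings of the 10. It and the further lists were chosen with earlier results of these data known. Their counts and p-values therefore describe these libraries and are no independent test. The background for it and for the further lists is that of all genes, of which 23.5% were higher and 21.1% lower in male liver, 11.5% and 11.6% in muscle and 3.79% and 3.43% in cortex. At an unadjusted p under 0.05, to which the counts at that threshold in all these lists compare, it is 51.4% of all genes in male liver, 35.3% in muscle and 23.8% in cortex, and 5.77%, 10.7% and 11.2% in females. In male liver 19 of the 30 tested were higher and 2 lower, with a median log2 fold change of 0.98 beside 0.060 over all genes. The largest was Per1, with 5.59 ± 2.2 CPM in AL and 139 ± 49.5 CPM in IF mice (4.53 ± 0.29, adjusted p = 1.80e-09), then Mt1 (4.11 ± 0.54, adjusted p = 2.14e-05) and Igfbp1 (3.23 ± 0.51, adjusted p = 1.21e-04). In male muscle 20 of 26 were higher and 0 lower, with a median of 0.90 beside 0.006 over all genes, and 21 had an unadjusted p under 0.05. Arrdc2 had 11.4 ± 4.3 CPM in AL and 163 ± 63.2 CPM in IF mice (3.78 ± 0.34, adjusted p = 3.48e-06), while Pck1 (4.45 ± 0.78, adjusted p = 9.95e-04) and Angptl4 (2.80 ± 0.38, adjusted p = 1.38e-04) also rose. Summed adipocyte markers went from 135 CPM in AL to 868 CPM in IF male muscle, and their part in the values of this list was not tested. In male cortex 9 of 26 were higher and 0 lower, with a median of 0.19 beside -0.005 over all genes, and 10 had an unadjusted p under 0.05. There Plin4 had 1.69 ± 0.392 CPM in AL and 17.1 ± 14.4 CPM in IF mice (3.35 ± 0.51, adjusted p = 0.00373), beside Arrdc2 (1.27 ± 0.20, adjusted p = 0.00284) and Map3k6 (1.12 ± 0.16, adjusted p = 9.18e-04). With 1 male cortex library left out at a time, the cortex count of this list ranged from 6 to 9. It was lower with the library of AL mouse 1 put back, as given in the last section. In females edgeR called 0 of 30, 0 of 27 and 0 of 26 in liver, muscle and cortex, 2, 4 and 5 had an unadjusted p under 0.05, beside 5.77%, 10.7% and 11.2% of all genes, and DESeq2 called 0, 1 and 1.

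Lists of the partners of the receptor were counted in the same fits, with the same background of 23.5% higher and 21.1% lower in male liver, and no list was tested against another. Of 10 chaperones and co-chaperones of the receptor complex, to which Fkbp5 belongs by role, 4 were higher and 1 lower in male liver, 4 lower in male muscle and 5 lower in male cortex. In liver Cdc37 (1.18 ± 0.11, adjusted p = 1.32e-08) and Hsp90ab1 (0.65 ± 0.12, adjusted p = 1.59e-04) rose and Hspa4 (-0.48 ± 0.10, adjusted p = 4.47e-04) fell, while in cortex Hspa8 (-0.31 ± 0.061, adjusted p = 0.00649) and Hsp90aa1 (-0.28 ± 0.063, adjusted p = 0.0149) fell. Of 9 genes for hormone access and the related receptor Nr3c2, 3 of 8 tested were higher and 4 lower in male liver, 2 of 4 higher in muscle and 1 of 5 higher in cortex. Hsd11b1, which regenerates active hormone in the cell, rose in muscle (0.90 ± 0.21, adjusted p = 0.00608), and H6pd, which supplies its cofactor, in cortex (0.50 ± 0.12, adjusted p = 0.0163). In liver the hormone-inactivating reductases Akr1d1 (-1.29 ± 0.15, adjusted p = 1.68e-07) and Srd5a2 (-1.79 ± 0.41, adjusted p = 9.15e-04) fell and the efflux pump gene Abcb1a (2.30 ± 0.23, adjusted p = 2.42e-08) rose. Of 10 receptor coregulators, 2 were higher and 2 lower in male liver, the same in male muscle, and 0 of 10 were called by edgeR in male cortex, where 3 had an unadjusted p under 0.05, as did 23.8% of all genes. In muscle Nrip1 rose (1.46 ± 0.12, adjusted p = 1.39e-07).

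Nfkbia, Hif3a and Ddit4 each act on a further pathway, whose other genes were counted in the same fits, and the counts in male liver stand beside the 23.5% higher and 21.1% lower of all genes. Of 14 NF-kB genes, 3 were higher and 2 lower in male liver, and 3 of 11 tested were lower in muscle. In male cortex edgeR called 0 of 11, with 2 at an unadjusted p under 0.05, beside 23.8% of all genes. Relb rose (0.80 ± 0.20, adjusted p = 0.0023) and Cxcl1 fell (-2.35 ± 0.29, adjusted p = 1.62e-06) in liver, and Tnfaip3 fell in muscle (-0.95 ± 0.17, adjusted p = 3.72e-04). Of 15 HIF genes, 6 of 14 tested were higher and 1 lower in male liver, 4 higher and 2 lower in muscle and 1 higher in cortex. Ldha (1.87 ± 0.17, adjusted p = 5.65e-09), Pgk1 (1.66 ± 0.17, adjusted p = 9.38e-08) and Egln2 (1.41 ± 0.11, adjusted p = 8.22e-10) rose in liver, Arnt (0.54 ± 0.072, adjusted p = 1.44e-05) in muscle and Slc2a1 (0.64 ± 0.10, adjusted p = 0.00193) in cortex. Of 11 genes that act on TORC1 as Ddit4 does or belong to it, 2 were higher and 2 lower in liver, 2 and 2 in muscle and 1 and 1 in cortex. Sesn2 rose in liver (1.07 ± 0.16, adjusted p = 7.25e-06), Deptor in muscle (0.86 ± 0.11, adjusted p = 9.42e-06) and Tsc1 in cortex (0.39 ± 0.084, adjusted p = 0.0111).

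The time of sampling bears on clock genes and handling on immediate early genes, so both lists are given beside the 10. Of 17 clock genes, 12 were higher and 4 lower in male liver, 7 and 7 in muscle and 5 and 3 in cortex. Npas2 fell in liver (-6.22 ± 0.67, adjusted p = 8.76e-07), Nr1d1 fell in muscle (-2.47 ± 0.12, adjusted p = 4.51e-10) and Ciart rose in cortex (0.95 ± 0.12, adjusted p = 3.26e-04). Per1 belongs to both the clock list and the list of glucocorticoid-induced genes, and which of the 2 its change goes with was not tested. Of 10 immediate early genes, 3 of 8 tested were higher in liver and 2 higher and 1 lower in muscle, and edgeR called 0 of 10 in cortex, where 4 had an unadjusted p under 0.05, beside 23.8% of all genes. Nr4a1 was the largest of them in liver (1.41 ± 0.26, adjusted p = 1.23e-04) and in muscle (0.87 ± 0.070, adjusted p = 3.36e-08). In females edgeR called 0 genes of each of these 8 lists in each tissue, and at an unadjusted p under 0.05 the clock list had 3 of 16 in liver, 4 of 16 in muscle and 7 of 17 in cortex, beside 5.77%, 10.7% and 11.2% of all genes. The immediate early list then had 1 of 7, 4 of 10 and 2 of 10, the NF-kB list 4 of 14, 2 of 11 and 0 of 11, and the hormone access list 0 of 8, 2 of 4 and 1 of 5. For the HIF list it was 1 of 14, 2 of 15 and 2 of 15, for the TORC1 list 1 of 11, 2 of 11 and 0 of 11, for the coregulators 1, 2 and 1 of 10 and for the chaperones 1, 1 and 0 of 10. For these lists DESeq2 was not counted.

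Markers of other cell types also differed between the diets in males, and some of these shifts follow. In muscle 5 of 6 adipocyte markers were higher, and their summed level was 135 ± 109 CPM (SD, n = 8; 33.8 to 352) in AL and 868 ± 613 CPM (122 to 1963) in IF mice, the most abundant being Cfd at 75.9 and 578 CPM. In liver 3 of 5 erythrocyte markers were higher, with sums of 577 ± 193 CPM (362 to 956) in AL and 2575 ± 2165 CPM (667 to 6879) in IF mice, Hba-a1 being the most abundant at 342 and 1184 CPM. In cortex 5 of 6 oligodendrocyte markers were higher, with sums of 5768 ± 968 CPM (4560 to 7080) in AL and 8338 ± 1376 CPM (6274 to 10230) in IF mice, Mbp leading at 3275 and 4892 CPM. Of the hepatocyte list 2 genes were tested in muscle, of which Cyp2e1 (4.02 ± 0.50, adjusted p = 7.05e-05) was called and Alb (1.40 ± 0.53, adjusted p = 0.0636) was not, and 4 of its 6 genes were under 0.1 CPM in IF mice. Adipocyte markers in liver fell from a sum of 28.2 to 9.58 CPM, with 1 of 2 tested called, and T and B cell markers in cortex went from 10.3 to 21.7 CPM, mostly Cd4, with 0 of 2 tested called by edgeR and 1 at an unadjusted p under 0.05. In muscle 3 of 4 tested astrocyte markers were higher and 2 of 6 muscle fibre markers lower, and for macrophage, endothelial, T and B cell, choroid plexus and neuron markers edgeR called at most 2 genes per list and tissue in males. The endothelial sum in male liver went from 76.8 CPM (66.3 to 92.3) in AL to 116 CPM (96.4 to 173) in IF mice with no overlap, and 4 of its 6 genes had an unadjusted p under 0.05, beside 51.4% of all genes there. Of 4 tested genes of the Y chromosome and X inactivation, 3 were lower in male liver and 4 higher in male muscle. In females the corresponding sums were 278 and 206 CPM for adipocyte markers in muscle, 576 and 539 CPM for erythrocyte markers in liver and 7485 and 6748 CPM for oligodendrocyte markers in cortex. Choroid plexus markers in female cortex went from 4.87 CPM (2.74 to 8.63) in AL to 23.6 CPM (1.61 to 115) in IF mice, and endothelial markers in female muscle from 201 to 152 CPM. In females edgeR called 0 genes of every marker list, and at an unadjusted p under 0.05 there were 4 of 5 choroid plexus and 4 of 6 oligodendrocyte markers in cortex and 4 of 6 endothelial markers in muscle, beside 11.2% of all genes in cortex and 10.7% in muscle. The part of these cell types in the levels of Sgk1, Fkbp5, Hif3a and the other members was not tested.

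The DNA around the start of the 10 genes was read for the letters that the receptor is known to bind. The receptor's motif is a palindrome, and 3 nested forms of it were searched on both strands: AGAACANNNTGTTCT, the looser AGAACANNNTGTNC and the loosest GNACANNNTGTNC. Each strict form is contained in the looser ones, so their matches overlap. The windows and forms were partly chosen after a first look at the sequences, so the matches are a description and neither a site nor a cause, and receptor binding was not analysed here. Of the RefSeq promoter windows of 300 bases (GRCm38.p6), 15 belong to 8 of the 10 genes, Zbtb16 and Nr3c1 having no entry. Each form was found in 1 of the 15 windows, the same window of Sgk1, and in 3 (0.00913%), 46 (0.14%) and 156 (0.475%) of all 32851 windows, from strict to loose. That window, chr10:21993640-21993939 of GRCm38.p6 on the plus strand, follows with the loosest form in capitals, since it is the 1 of the 15 windows of these 8 genes that holds the motif:
Sgk1 promoter: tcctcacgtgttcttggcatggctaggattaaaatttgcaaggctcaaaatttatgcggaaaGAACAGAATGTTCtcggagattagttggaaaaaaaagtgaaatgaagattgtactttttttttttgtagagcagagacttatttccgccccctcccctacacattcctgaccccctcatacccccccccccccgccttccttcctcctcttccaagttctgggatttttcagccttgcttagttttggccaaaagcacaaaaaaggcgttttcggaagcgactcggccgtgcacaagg

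On GRCm39, the build of the count table, windows of 10 kb either side of the annotated start of the 10 genes were searched in the same way. The strict form was found in 1 of the 10 windows and in 0.326% of all 21770 windows, the looser in 2 of 10 and 7.3%, and the loosest in 4 of 10 and 28.5%. Where the letters are missing this says only that they are not in that window. The 6 matches lie in the windows of Sgk1 (2), Fkbp5 (2), Klf9 (1) and Nfkbia (1), and are shown on the strand of the gene with the loosest form in capitals, to let the reader compare the spacer and flanks. The starts used are those of the canonical GENCODE transcripts, 21870565 for Sgk1 and 28705152 for Fkbp5, which lie inside the longer spans given above for the genes as counted. Sgk1 a is the same stretch as in the promoter above, -958 bases from that start and in an intron, and it alone holds the strict form. Sgk1 b lies 5691 bases after the start and outside the gene, past its end, and the Klf9 match -5724 bases from the start and outside the gene, before it. Fkbp5 a lies 7917 and Fkbp5 b 1219 bases after the start in an exon and an intron, and Nfkbia 3799 bases after it in an exon of the GENCODE annotation but beyond the end of the gene as counted, where it also holds the looser form. Their positions are chr10:21869593-21869621 and chr10:21876242-21876270 on the plus strand for Sgk1, chr17:28697221-28697249 and chr17:28703919-28703947 on the minus strand for Fkbp5, chr19:23112449-23112477 on the plus strand for Klf9 and chr12:55535619-55535647 on the minus strand for Nfkbia:
Sgk1 a: tgcggaaaGAACAGAATGTTCtcggagat
Sgk1 b: ggtcctatGGACAGCTTGTCCttacattt
Fkbp5 a: agaggctgGTACAGGATGTTCatagcagc
Fkbp5 b: ggggctcgGGACAGGGTGTACagcgcttg
Klf9: ggtaaaaaGGACAAACTGTTCcacaacaa
Nfkbia: aatccagaGAACAGCTTGTGCggggacac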

How the data were processed

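Gene counts of liver, skeletal muscle and cerebral cortex from 96 libraries were used. The authors prepared poly-A RNA, aligned paired-end reads to GRCm39 with Hisat2, and deposited raw read counts per gene from featureCounts, whose strand setting and treatment of shared reads are not stated. The authors' gene length column, of an other unit (bases), was used for TPM. All 96 columns were matched to labels and 0 were left unmatched. The cortex library of AL mouse 1, whose sex-linked genes go against its label, was left out.

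CPM used library totals, 26097314 to 49838004 counts. Each tissue and sex was fitted with edgeR 4.0.16 (TMM, filterByExpr, robust quasi-likelihood test, Benjamini-Hochberg over all genes tested, threshold 0.05) in R 4.3.3, and the sex by diet and tissue by diet interactions likewise. Alternatives were DESeq2 1.42.0, RLE factors, library totals, a filter of 1 count in total or of 10 counts per library, a replicate block, fewer mice and leaving out each library. In the comparisons of tissues the block was the mouse number. Code was tested on simulated data. Covariation used log2 CPM with a prior count of 2 and 100000 permutations of mice within sex and diet (Python 3.11.15, numpy 2.4.6, pandas 2.3.3).

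The 10 genes and the other gene lists were chosen with earlier results of these data known. Named genes are the 10, up to 3 genes of each list per tissue and sex with the largest absolute log2 fold change among those past the threshold with a mean of at least 1 CPM, and the 3 genes most like each of the 10. Genes of known sex or tissue pattern, and the most abundant marker genes, are named beside these.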

Additional observations from a re-analysis of the deposited data

Results flagged for a closer look

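Of 120 groups of a gene, tissue, sex and diet, 9 held a mouse far from the rest of its group, where chance gives about 1 in 20 groups. The gap of the highest or lowest mouse to its neighbour was large against the range of the group in each case. In liver these were Tsc22d3 in IF male mouse 11 (138.3 CPM) and Hif3a in AL female mouse 30 (0.819 CPM). In muscle they were Fkbp5 in AL male mouse 1 (50.5 CPM) and Ddit4 in IF female mouse 40 (13.7 CPM). In cortex they were Tsc22d3 in AL female mouse 25 (84.3 CPM), Plekhf1 in AL male mouse 4 (4.82 CPM), in IF male mouse 10 (3.4 CPM, the lowest) and in AL female mouse 32 (7.93 CPM), and Nr3c1 in IF female mouse 36 (42.4 CPM, the lowest). Of the groups of summed markers only 12 were screened, which held 0 such mice, and the other sums were not screened.

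The adjusted p of the edgeR sex by diet interaction test was under 0.05 for 16 combinations of gene and tissue. Over all genes it was under 0.05 for 23.7% in liver, 14.2% in muscle and 2.03% in cortex. Hif3a in muscle is listed but not read as a call, since it did not pass the low-count filter in female muscle. It entered that fit through the males, so that 15 are left. Of the 15, Plekhf1 in muscle was lost under other settings, and Hif3a, Nfkbia and Plekhf1 in cortex with the library of AL mouse 1. Male values among those that chose the genes enter each of the 16, so lower values in females were favoured by the choice. The 16 are no independent finding. They were singled out because the adjusted p was under 0.05, and the values are log2 differences, female minus male. In liver they were -1.03 for Sgk1, -1.96 for Fkbp5 and -1.12 for Nfkbia. In muscle they were -1.25 for Sgk1, -1.06 for Tsc22d3, -2.31 for Hif3a, -0.69 for Klf9, -0.86 for Nfkbia, 0.38 for Plekhf1 and -2.49 for Ddit4. In cortex they were -1.42 for Sgk1, -0.86 for Tsc22d3, -1.77 for Hif3a, -0.63 for Nfkbia, -1.36 for Plekhf1 and -0.71 for Ddit4.

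The diet difference of males differed between tissues, by the same kind of test, in 13 cases, all of them resting on the values that chose the genes. Over all genes 33.7% were called between liver and muscle, 30.1% between liver and cortex and 5.21% between muscle and cortex. The Ddit4 call between liver and cortex was lost without the expression filter. Liver minus muscle gave -0.80 for Tsc22d3, 2.54 for Fkbp5, 1.86 for Zbtb16, -0.99 for Klf9, 1.09 for Plekhf1, -3.19 for Ddit4 and -0.47 for Nr3c1. Liver minus cortex gave 1.70 for Fkbp5, -0.50 for Klf9, -0.76 for Plekhf1 and -0.98 for Ddit4. Muscle minus cortex gave -1.85 for Plekhf1 and 2.21 for Ddit4.

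The cortex library of AL mouse 1, used in no comparison above except where stated, had 213.3 CPM of Xist, a transcript that the other male cortex libraries had at 0.229 CPM or less. Why it goes against its label was not tested.

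The limits are these. Fasting and feeding time cannot be told apart, nor can sex and the set of mice. Males of both diets were sampled between clock hours 7 and 12, and the hour of each mouse is not stated. The regime of the females is not stated. The genes were chosen by measured values of these same libraries, the male values among them. Levels are mRNA of bulk tissue, and hormone and receptor binding were not analysed here. Mouse numbers across tissues rest on library names, and the values do not establish them.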

How the results depend on the processing

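The number of the 10 genes past the threshold in male liver, muscle and cortex was 7, 8 and 7. Under each alternative it lay within 1.5 times these values, which is not read as stability, since the genes were chosen for such changes. Left out one library at a time, it ranged from 7 to 8 in liver, 7 to 8 in muscle and 7 to 7 in cortex, that of the other glucocorticoid-induced genes from 20 to 21, 19 to 20 and 6 to 9, and that of all genes from 6842 to 7219, 2933 to 3740 and 638 to 2060. For all genes called, cortex male IF against AL, the lowest value came without AL replicate 2 and the highest without IF replicate 4, and leaving out AL replicate 3 (766) or 5 (771) or IF replicate 3 (877), 5 (866) or 6 (823) also moved it by over 1.5 times.

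All genes called in male cortex numbered 1332, and 2259 with DESeq2, 498 without AL mouse 2 and IF mouse 10, and 294 with the library of AL mouse 1, with which 4 other glucocorticoid-induced genes were called in place of 9. With that library, an alternative chosen after seeing the data, the sex by diet interaction in cortex called 3 of the 10 genes in place of 6.

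In females DESeq2 called 6, 91 and 73 of all genes in liver, muscle and cortex where edgeR called 0, 1 and 2, and 1 other glucocorticoid-induced gene in muscle and 1 in cortex where edgeR called 0. Without a filter muscle had 5, and with library totals cortex had 0. Left out one library at a time, liver stayed at 0 to 0 for the 10 genes, the other list and all genes, muscle at 0 to 0, 0 to 0 and 1 to 3 (3 without AL replicate 3), and cortex at 0 to 2, 0 to 0 and 0 to 254, the highest without AL replicate 2, which is mouse 26.

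With the replicate block, all genes called numbered 382 in male cortex and 0 in female cortex. Numbers of replicates do not mark pairs of mice in these data, so the replicate block is no paired design.

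Among the 10 genes, Klf9 in male liver passed at -0.34 with RLE factors and DESeq2, -0.35 without a filter and, without AL replicate 7 or IF replicate 3, at -0.37 and -0.42. With library totals, which shifted the median of all genes by -0.17 in liver and -0.16 in muscle in the sex by diet interaction, Nr3c1 in muscle passed at -0.41 (adjusted p = 0.0368) and in liver moved to -0.022 (adjusted p = 0.935). Over the refits without 1 library, 903 values of the diet comparisons kept their side of the threshold, those not past it moving by less than their standard error and some of them across 0, such as Fkbp5 in male muscle. In the same refits 9 lost the threshold and 4 passed it, and 2 moved by more without crossing it: Sgk1 in female liver to -0.23 without IF replicate 2 and Ddit4 in female muscle to 0.10 without IF replicate 8. Covarying relations, which were not counted over genes outside the list, numbered 4. Of these, 3 are of Hif3a and rest on low counts in liver or muscle. Without the 2 farthest mice the number was 1, also of Hif3a, and in females alone it was 0. For each of these changes the cause was not tested.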
